A study of Mus musculus with 26 samples.

Results

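Drug-metabolizing enzymes of the cytochrome P450 (CYP) families 1 to 3, the UDP-glucuronosyltransferases (UGT), the cytosolic sulfotransferases (SULT) and the carboxylesterases (CES) were examined in the proximal small intestine (SI) of mice with an inducible gene knockout in intestinal epithelial cells (IECs). Members were chosen by gene symbol alone, as every gene whose symbol begins with Cyp1, Cyp2 or Cyp3, Ugt1, Ugt2 or Ugt3, Sult, or Ces and follows the naming pattern of these families. The rule found 119 of 55487 genes, of which 3 were Cyp1, 48 Cyp2, 7 Cyp3, 9 Ugt1, 10 Ugt2, 2 Ugt3, 21 Sult and 19 Ces genes.

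Knockout mice (tamIEC-KO) carried fl/fl alleles of the targeted gene and a tamoxifen-inducible Cre recombinase driven by the villin promoter, which is active in IECs. Control mice were littermates with the same fl/fl alleles and no Cre, so the knockout and the control groups also differ in the presence of the Cre. Mice of all 4 groups were 8 to 12 weeks old and received 5 daily injections of tamoxifen. They were killed 3 days (7 knockout, 7 control) or 7 days (6 knockout, 6 control) after the last injection, and each library came from 1 mouse. 3′ mRNA sequencing was performed on a whole piece of proximal SI, which holds muscle, lamina propria and epithelium. In such tissue, fewer cells of a type and less RNA per cell cannot be told apart.

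The intestine meets ingested drugs, plant compounds and steroids before the liver does, and its absorptive enterocytes hold much of the same enzymatic equipment. In phase I, CYP enzymes of the endoplasmic reticulum oxidize a substrate with electrons passed on by cytochrome P450 reductase, and carboxylesterases cut ester bonds. In phase II, UGT enzymes attach glucuronic acid from UDP-glucuronic acid, and SULT enzymes attach sulfate from the donor PAPS. Conjugates then leave the cell through membrane transporters, and nuclear receptors such as PXR (Nr1i2) and CAR (Nr1i3) set the levels of many of these genes.

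The libraries held 3720168 to 6338016 counted reads, and levels are given in CPM, the counts of a gene scaled to an equal total in each library. A 3′ library yields about one read position per transcript whatever its length, so CPM levels of different genes can be set side by side, within the limits of how well each 3′ end can be mapped. Between 0.0816% and 0.445% of all counts at 3 days and between 0.281% and 0.8% at 7 days fell on members. Counts of 3 or fewer in a library were taken as its floor, and intervals given for pooled counts cover counting error only. Markers of neighbouring organs were high in several libraries. Summed markers of stomach epithelium exceeded 5000 CPM in 1 knockout and 2 control libraries of day 3 and in 1 control library of day 7, and those of pancreatic acinar cells in 1 knockout and 2 control libraries of day 3 and 1 knockout library of day 7. Whether mice shared a litter or a sequencing batch is not stated in the labels.

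Some members could not be told apart from their neighbours. The 9 Ugt1a genes share their last exons, where 3′ reads fall. The authors divided such reads between overlapping genes, and each Ugt1a gene received between 10.1% and 14.0% of the counts of the locus in every library. They are therefore treated as 1 locus. Ugt2a1 and Ugt2a2 overlap in the same way. Of the 50-base windows in the last 500 bases, 51.2% were shared with other genes for Cyp2c68, 25.7% for Cyp2d26, 25.1% for Ces1b, 21.5% for Cyp2c66 and 19.2% for Cyp3a25, so reads of these genes may come in part from a paralog. Cyp2c29 overlaps the pseudogene Cyp2c53-ps. Cyp2s1, Cyp2c55, Cyp2u1, Sult1a1 and Sult2b1 overlap genes of the opposite strand, from which their reads cannot be told apart if the counting ignored strand.

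At the level of whole classes, the Sult, Cyp2 and Ces sums were lower in knockout than in control mice at 7 days. The sums of the Cyp3 and Ugt2 genes overlapped between the genotypes. Here and below, a gene that fell or rose was lower or higher in knockout than in control mice of the same day. The Sult sum was 391 ± 76.1 CPM in 6 knockout mice and 1914 ± 429.6 CPM in 6 control mice (mean ± SD). The Cyp2 sum was 225 ± 18.7 against 1142 ± 272 CPM, and the Ces sum 263 ± 24.6 against 925 ± 154 CPM. In none of these 3 classes did a knockout mouse reach the lowest control mouse. The sum of the Ugt1a locus was 619 ± 83.4 against 924 ± 166 CPM, with knockout mice between 494 and 754 and control mice between 745 and 1144 CPM. By contrast, the Cyp3 sum was 1430.1 ± 348 in knockout and 1353 ± 205 CPM in control mice, and the Ugt2 sum 786 ± 74.0 and 720.1 ± 82.9 CPM. Single genes make up these latter sums, since Cyp3a13 held 81.1% of the mean Cyp3 level over all libraries and Ugt2b34 81.1% of that of Ugt2. Without Cyp3a13, the Cyp3 sum of knockout mice at 7 days was 0.147 of that of control mice, and without Ugt2b34 the Ugt2 sum was 0.26 of it. The Cyp1 sum was low throughout, at 9.87 ± 2.22 against 5.22 ± 2.10 CPM. At 3 days the groups overlapped in all 7 classes. Ugt3 genes had no count above the floor in any library.

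**Figure D1:**
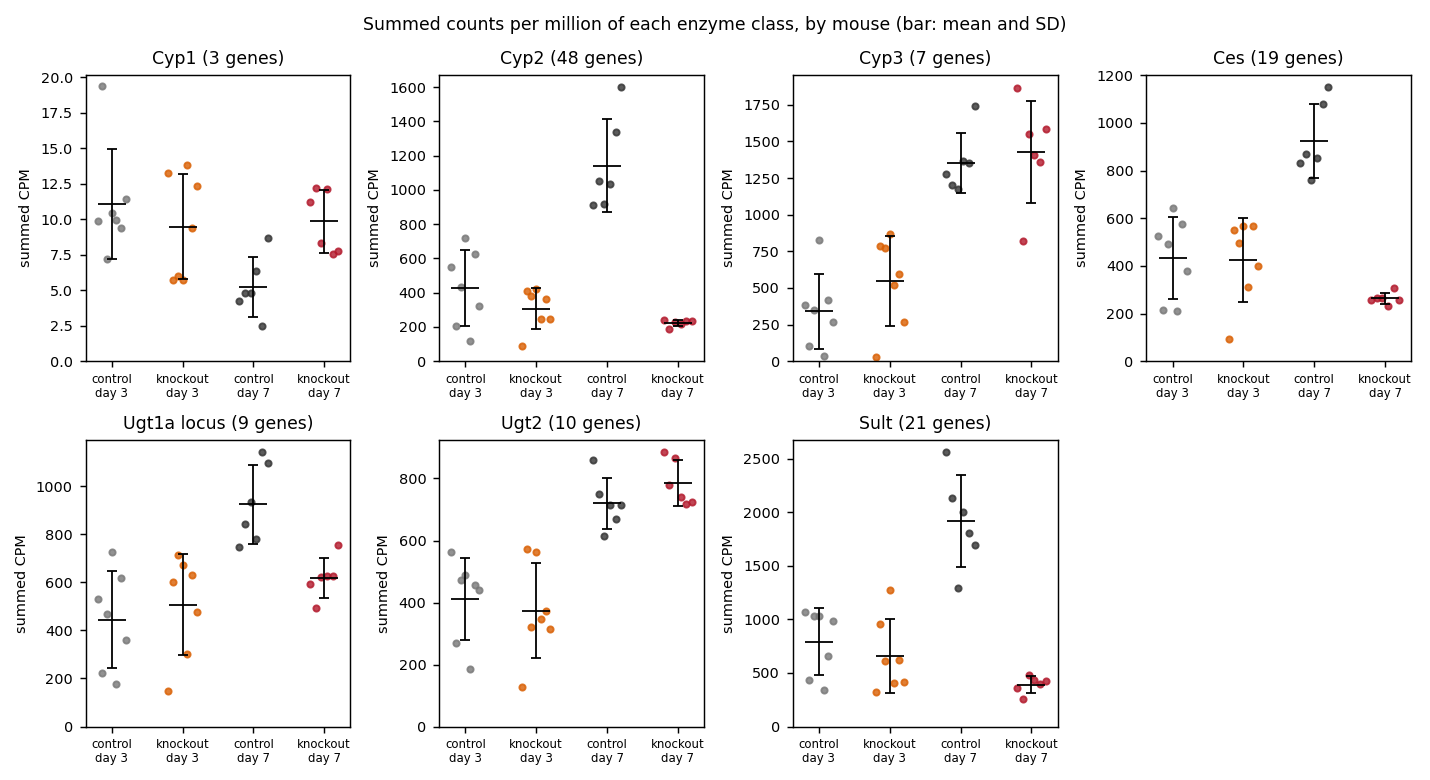
Summed CPM of the members of each class (vertical axis, linear from 0) in each mouse of the 4 groups; bars give the mean and SD. At 7 days the 6 knockout mice lie below all control mice for Sult, Cyp2 and Ces, and the groups overlap for Cyp3 and Ugt2.

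Enterocyte markers moved in the same libraries. At 7 days, 10 of 11 enterocyte markers fell, with a median log2 fold change of -1.94, and their sum was between 3862 and 5768 CPM in knockout and between 16835 and 32317 CPM in control mice. None of the 11 was at 0. Of 7 pan-epithelial markers, 2 rose and 3 fell, with a sum between 3199 and 3664 CPM against between 3593 and 4754 CPM. All 9 proliferation markers and 6 of 7 stem cell markers fell. Of 8 immune cell markers tested, 3 rose and 3 fell, with a sum between 231 and 480.0 CPM in knockout and between 514 and 1264 CPM in control mice. The 11 hepatocyte markers summed to at most 104 CPM in any library, although many of the members are known from liver. The part of these shifts in the results below was not tested.

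Genes were tested where most samples of each genotype had a count, which held at 7 days for 59 of the 119 members. Of these, 37 fell and 7 rose in knockout mice (adjusted p under 0.05), and 15 did not pass the test. That is 62.7% lower and 11.9% higher, where 18.8% of all 20259 tested genes fell and 19.7% rose. The median log2 fold change was -0.58 over the 59 members and -0.02 over all genes. With the Ugt1a genes summed, 29 of 51 fell and 7 rose, and the median log2 fold change of members was -1.18. In 27 of the 59 members every knockout library was lower than every control library, and in 3 every one was higher, against 11.6% and 11% of all genes. The 27 include Ugt1a1 and Ugt1a5, whose locus as a whole overlapped between the groups. Both genes of the Cyp1 class that were tested changed, and 12 of 18 Cyp2, 3 of 4 Cyp3, 8 of 12 Ces, 4 of 8 Sult and all 6 Ugt2 genes tested. The 7 rises became 4 when control replicate 4, 5 or 6 of day 7 was left out and also in a fit of all 26 libraries, which called 26 members lower. Among all 20259 genes, the fit of all 26 libraries called 3364 lower and 3590 higher. In that fit Ces2a, Cyp1a1, Cyp3a13, Ugt2b34, Ugt2b35 and the Ugt1a genes, all described below, did not pass the test.

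**Figure D2:**
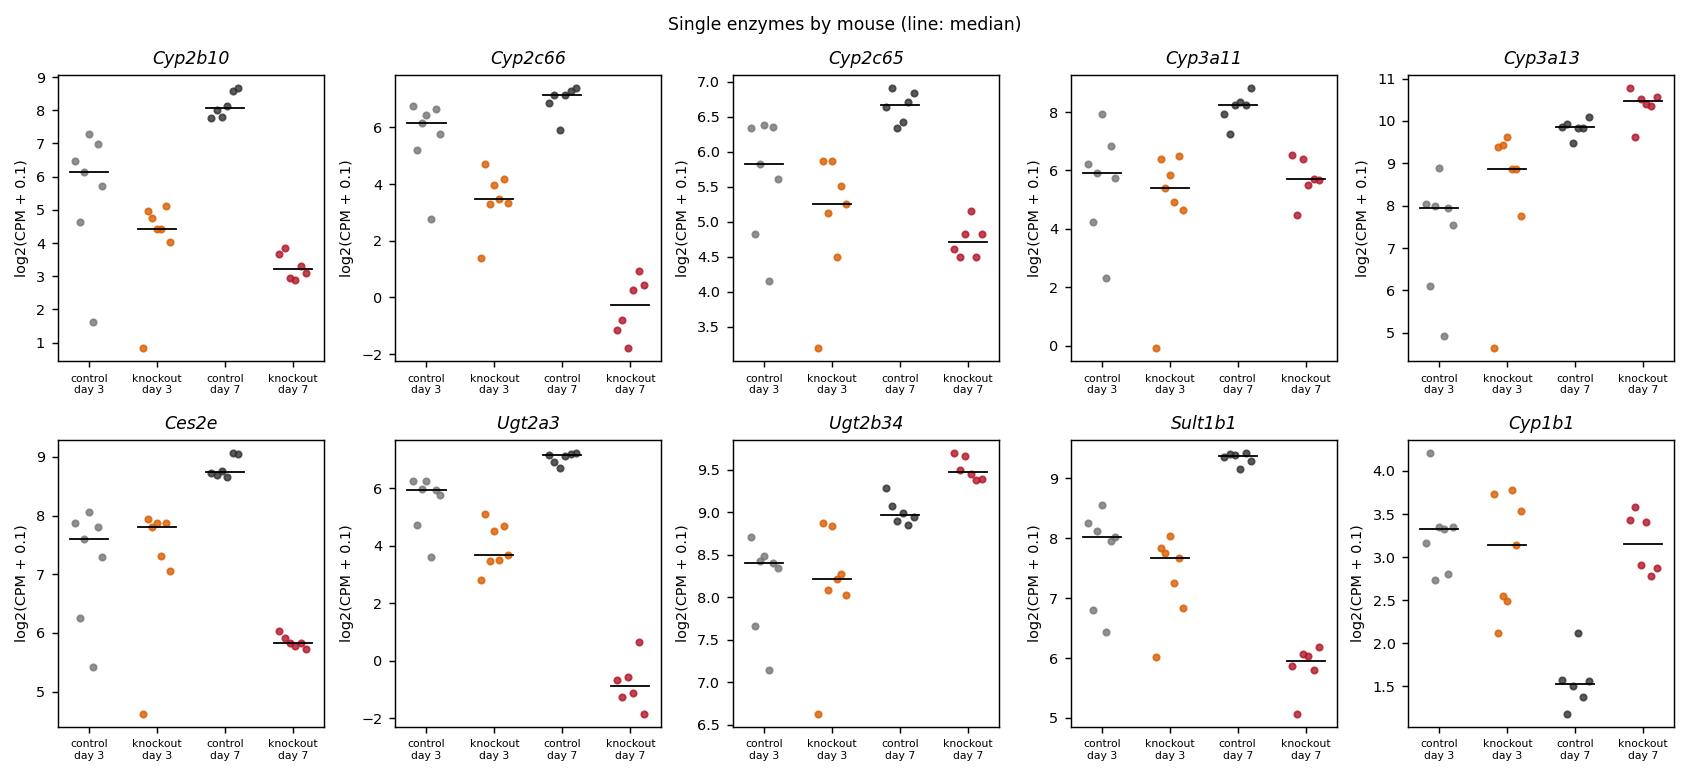
Level of 10 members in each mouse, as log2(CPM + 0.1), with the median of each group as a line. Cyp2b10, Cyp2c66, Ces2e, Ugt2a3 and Sult1b1 are separated between the genotypes at 7 days, Cyp3a13, Ugt2b34 and Cyp1b1 are higher in knockout mice, and the day 3 groups overlap.

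Among the phase I enzymes, the Cyp2 genes showed the largest differences between the genotypes. Cyp2b10, the classical target of the receptor CAR (chr7:25897620-25926624, plus strand), was between 7.25 and 14.4 CPM (median 9.17) in knockout mice and between 218 and 411 CPM (median 268) in control mice at 7 days. No knockout mouse came near the control range, and the level fell 28.8-fold (log2 fold change -4.85 ± 0.22, edgeR adjusted p = 6.4e-12). It was the most abundant Cyp2 transcript of the control SI, so the class sum without it was 0.254 rather than 0.197 of control. Cyp2j6, an enzyme that oxidizes arachidonic acid, was between 55.1 and 79.9 CPM (median 70.4) against between 115 and 271 CPM (median 161) and fell less (log2 fold change -1.35 ± 0.18, edgeR adjusted p = 8.86e-06). Its mean at 3 days was 65.45 CPM in knockout and 73.61 CPM in control mice. Cyp2d26 was between 50.4 and 84.2 CPM (median 78.7) in knockout and between 125 and 206 CPM (median 169.9) in control mice (log2 fold change -1.16 ± 0.15, edgeR adjusted p = 4.79e-06). Both were separated between the genotypes, but their falls were 2.54-fold and 2.24-fold.

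The Cyp2c genes encode oxidases of drugs, steroids and fatty acids. They lie side by side on chromosome 19, except for Cyp2c23, which lies apart from the others. All 6 that were tested fell, and the size of the fall differed between neighbours. Cyp2c66 (chr19:39113898-39187072, plus strand) was between 0.19 and 1.81 CPM (median 0.781) in knockout and between 60.4 and 169 CPM (median 140.2) in control mice, a 143-fold fall (log2 fold change -7.16 ± 0.31, edgeR adjusted p = 5.08e-12). Cyp2c29 (chr19:39269405-39330713, plus strand) was between 0.19 and 1.11 CPM (median 0.71) against between 31.8 and 260.2 CPM (median 114) (log2 fold change -7.35 ± 0.52, edgeR adjusted p = 2.61e-09). Neither transcript exceeded 1.81 CPM in any knockout mouse of day 7. Cyp2c65 (chr19:39061015-39093944, plus strand), the direct neighbour of Cyp2c66, was between 22.4 and 35.5 CPM (median 26.2) against between 80.9 and 121 CPM (median 102), and fell 3.68-fold (log2 fold change -1.88 ± 0.13, edgeR adjusted p = 1.46e-09). The difference between these neighbours was not tested, and Cyp2c65 was chosen for mention after its values were seen. Cyp2c68 was between 0 and 1.43 CPM (median 0.708) against between 16.5 and 23.5 CPM (median 19.6) (log2 fold change -4.76 ± 0.30, edgeR adjusted p = 5.84e-10). Cyp2c55 fell by 3.55 on the log2 scale and Cyp2c38 had 5 pooled counts in 6 knockout and 200 in 6 control libraries. For Cyp2c38 the control level was 41.6 times (95% interval 17.5 to 129.6 for counting error) that of knockout mice.

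Promoter sequences of 5 members are shown because they belong to neighbours or paralogs that moved by very different amounts or in opposite directions. They are the 150 bases before the RefSeq start of Cyp2c65 (chr19:39060856-39061005, plus strand), Cyp2c66 (chr19:39113748-39113897, plus strand), Cyp2c68 (chr19:39741102-39741251, minus strand), Cyp3a13 (chr5:137921620-137921769, minus strand) and Ugt2b34 (chr5:86906938-86907087, minus strand) in GRCm38, each written 5′ to 3′ on the gene's strand, and capitals mark the letters CAAAGTCCA.
Cyp2c65: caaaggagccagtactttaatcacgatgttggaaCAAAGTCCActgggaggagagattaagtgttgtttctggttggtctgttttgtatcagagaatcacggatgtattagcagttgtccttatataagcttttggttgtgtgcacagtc
Cyp2c66: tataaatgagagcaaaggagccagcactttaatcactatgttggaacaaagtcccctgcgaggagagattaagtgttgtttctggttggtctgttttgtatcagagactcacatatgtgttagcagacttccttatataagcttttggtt
Cyp2c68: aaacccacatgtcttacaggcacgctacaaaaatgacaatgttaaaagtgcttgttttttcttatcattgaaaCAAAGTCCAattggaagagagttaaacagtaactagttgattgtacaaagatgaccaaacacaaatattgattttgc
Cyp3a13: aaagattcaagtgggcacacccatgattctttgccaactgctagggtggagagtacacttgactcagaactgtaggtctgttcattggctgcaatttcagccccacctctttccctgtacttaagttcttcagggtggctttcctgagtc
Ugt2b34: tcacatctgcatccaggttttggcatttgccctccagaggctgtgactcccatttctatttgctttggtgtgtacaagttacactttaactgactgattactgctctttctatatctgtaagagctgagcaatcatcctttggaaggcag
CAAAGTCCA is a form of the motif bound by the HNF4 nuclear receptors, and it was searched on both strands in windows from 250 bases before to 50 after the start. It was present in 9 of 108 windows of members (8.33%) and in 156 of 32851 windows of all genes (0.475%). The 108 windows belong to 101 members, and the matches were in Cyp2c40, Cyp2c65, Cyp2c67, Cyp2c68, Cyp2c69, Cyp2c70, Cyp3a11, Cyp3a16 and Sult1b1. The Cyp2c genes among them are paralogs with related promoters, so these matches are not independent of each other. Of the 4 tested at 7 days, Cyp2c65, Cyp2c68, Cyp3a11 and Sult1b1, all fell, where 62.7% of all tested members fell. Whether the letters go with the falls was not tested. The Sult1b1 match lies after the start of a RefSeq window 1973 bases away from the start in the other annotation. Among the windows printed, those of Cyp2c66, Cyp3a13 and Ugt2b34 do not hold exactly these letters. Only exact matches were searched, and the Cyp2c66 window holds caaagtccc, which differs from the motif in its last letter only. The core GCGTG of the dioxin response element was present in 15.7% of member windows and 32.4% of all windows. The hexamers TGACCT and TGAACT, which nuclear receptors bind in pairs, were present in 29.6% and 20.4% of member windows and in 16.3% and 14.0% of all windows. A match is a description of letters and not a site of binding.

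Cyp3a enzymes oxidize a large share of ingested drugs, and the family moved in both directions. Cyp3a13 (chr5:137892932-137921619, minus strand), the most abundant member at 7 days, was between 789 and 1766 CPM (median 1409.8) in knockout and between 718 and 1099 CPM (median 921) in control mice and rose 1.52-fold (log2 fold change 0.60 ± 0.15, edgeR adjusted p = 0.00434). One knockout mouse lay within the control range, and the other 5 lay above it. Cyp3a11 (chr5:145854426-145879964, minus strand), a classical target of the receptor PXR, was between 22.0 and 91.1 CPM (median 51.7) in knockout and between 150.5 and 457 CPM (median 306) in control mice and fell 5.05-fold (log2 fold change -2.34 ± 0.30, edgeR adjusted p = 4.82e-06). Cyp3a25 (chr5:145977194-146009618, minus strand) fell further, from between 72.7 and 182 CPM (median 134) in control to between 3.60 and 5.88 CPM (median 4.71) in knockout mice (log2 fold change -4.76 ± 0.22, edgeR adjusted p = 9.08e-12). The groups did not overlap for these latter genes. Cyp3a13 lies apart from the other Cyp3a genes on chromosome 5. Cyp3a44, with at most 9 counts in a library, did not pass the test (log2 fold change 1.96 ± 0.76, edgeR adjusted p = 0.0509).

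The Cyp1 genes, known targets of the aryl hydrocarbon receptor, were low. Cyp1a1 was between 0.317 and 1.63 CPM (median 0.681) in knockout and between 0 and 5.84 CPM (median 2.08) in control mice, with overlapping groups. It was called lower (log2 fold change -1.50 ± 0.58, edgeR adjusted p = 0.0497), but the call was lost when any one of knockout replicates 1, 2, 3, 5 and 6 of day 7 and control replicates 2, 3, 4 and 6 of day 7 was left out, at adjusted p values up to 0.203 (edgeR). Cyp1a2 had at most 6 counts in any library and was not tested. Cyp1b1, a steroid hydroxylase also expressed outside the epithelium, went the other way, with between 6.75 and 11.9 CPM (median 8.95) in knockout and between 2.17 and 4.23 CPM (median 2.79) in control mice. Every knockout mouse was above every control mouse, and the level rose 3.18-fold (log2 fold change 1.67 ± 0.21, edgeR adjusted p = 3.35e-06). The mean of Cyp1b1 at 3 days was 8.94 CPM in knockout and 10.12 CPM in control mice, and at 7 days 9.07 and 2.89 CPM. Of the 4 groups, only the control mice of day 7 thus had a low mean.

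Carboxylesterases hydrolyse ester drugs and lipids, and 7 of 12 tested genes fell. Ces2e (chr8:104926260-104934672, plus strand), the most abundant, was between 52.6 and 65.2 CPM (median 56.5) in knockout and between 404 and 537 CPM (median 428) in control mice, a 7.80-fold fall (log2 fold change -2.96 ± 0.12, edgeR adjusted p = 1.81e-12). Ces2g was between 10.5 and 23.1 CPM (median 18.8) against between 75.3 and 164 CPM (median 103) (log2 fold change -2.59 ± 0.19, edgeR adjusted p = 3.03e-09). In both genes the groups were far apart. Ces2a, which lies in the same cluster on chromosome 8, was between 69.0 and 123 CPM (median 84.3) in knockout and between 85.1 and 185 CPM (median 124) in control mice, and the groups overlapped. Its fall was small (log2 fold change -0.53 ± 0.20, edgeR adjusted p = 0.0404), and leaving out any one of knockout replicates 2, 3, 4 and 6 of day 7 and control replicates 3, 5 and 6 of day 7 ended the call (adjusted p up to 0.0965, edgeR). Of the Ces2 genes, Ces2b, Ces2c and Ces2h did not pass the test, with log2 fold changes of 0.16 ± 0.41, 0.98 ± 0.49 and 0.21 ± 0.73.

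Ces1 genes lie in a second cluster on chromosome 8. Ces1g, an esterase that also takes part in lipid handling, had 7 pooled counts in the knockout and 507 in the control libraries of day 7. The control level was 75.4 times (95% interval 36.3 to 188 for counting error) that of knockout mice. Ces1e was between 6.34 and 10.7 CPM (median 9.65) against between 17.4 and 55.1 CPM (median 43.5) (log2 fold change -2.23 ± 0.22, edgeR adjusted p = 1.48e-07), and Ces1d between 0.5256 and 2.88 CPM (median 1.98) against between 3.91 and 15.8 CPM (median 9.34) (log2 fold change -2.28 ± 0.37, edgeR adjusted p = 7.33e-05). Ces1f, the most abundant Ces1 transcript, was between 72.6 and 89.4 CPM (median 80.8) in knockout and between 80.6 and 203 CPM (median 161) in control mice and fell 1.87-fold (log2 fold change -0.90 ± 0.15, edgeR adjusted p = 8.62e-05). The mean of Ces1f at 3 days was 86.3 CPM in knockout and 87.7 CPM in control mice. Its groups overlapped in part, whereas those of Ces1d, Ces1e and Ces1g did not. Ces1b, at the other end of the cluster and chosen for mention after its values were seen, had 20 pooled counts in knockout and 3 in control libraries, a ratio of 6.404 (95% interval 1.90 to 33.7 for counting error).

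Among the phase II enzymes, the Ugt1a locus (chr1:88055388-88220002) encodes enzymes that glucuronidate bilirubin, phenols and many drugs. Its summed level was 494 to 754 CPM in knockout mice (median 624) and 745 to 1144 CPM in control mice (median 889.6). The groups overlapped at their edges, and the locus fell 1.49-fold (log2 fold change -0.57 ± 0.13, edgeR adjusted p = 0.00199). As the reads of the locus were divided between its genes, the 9 falls counted above are a single measurement. Values of Ugt1a1 and Ugt1a7c alone, at -0.58 ± 0.13 and -0.52 ± 0.13, carry no separate information.

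Ugt2 and Sult1 genes share one stretch of chromosome 5, and within it a run of genes that rose bordered a run of genes that fell. At one end, Ugt2b34 (chr5:86889767-86906937, minus strand) was between 665 and 830.3 CPM (median 708) in knockout and between 459 and 623 CPM (median 499) in control mice, with no overlap (log2 fold change 0.54 ± 0.11, edgeR adjusted p = 0.000471). Ugt2b35 was between 38.8 and 47.9 CPM (median 44.5) against between 18.3 and 47.2 CPM (median 33.8), with overlapping groups (log2 fold change 0.41 ± 0.15, edgeR adjusted p = 0.0383). Its call was lost when any one of knockout replicates 1, 2, 3, 5 and 6 of day 7 and control replicates 2, 3, 4, 5 and 6 of day 7 was left out (adjusted p up to 0.0897, edgeR). Between them lies Ugt2b1, chosen for mention after its values were seen, which was between 2.72 and 11.6 CPM (median 5.17) in knockout and between 0 and 1.86 CPM (median 0.364) in control mice (log2 fold change 3.21 ± 0.54, edgeR adjusted p = 0.000108). All 6 knockout mice were above the control range for Ugt2b1.

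The adjoining genes fell. Ugt2b36 was between 0 and 1.59 CPM (median 0.873) in knockout and between 5.003 and 11.7 CPM (median 7.46) in control mice (log2 fold change -3.17 ± 0.36, edgeR adjusted p = 1.18e-06), and Ugt2b5 between 0.701 and 2.14 CPM (median 1.17) against between 9.06 and 34.3 CPM (median 27.4) (log2 fold change -4.26 ± 0.32, edgeR adjusted p = 5e-09). Ugt2a3 (chr5:87324972-87337195, minus strand), which glucuronidates bile acids, showed the largest fall of all members tested. It was between 0.18 and 1.48 CPM (median 0.444) in knockout and between 104 and 149 CPM (median 140.0) in control mice, so that a transcript well measured in each control mouse was close to the floor in each knockout mouse (log2 fold change -7.77 ± 0.23, edgeR adjusted p = 4.73e-14). Further along, Sult1b1 (chr5:87513339-87538195, minus strand), which sulfates phenols and thyroid hormones, was between 33.6 and 72.9 CPM (median 61.7) against between 570.1 and 687 CPM (median 664) and fell 10.8-fold (log2 fold change -3.44 ± 0.17, edgeR adjusted p = 1.68e-11). Sult1d1 was between 147 and 238 CPM (median 195) in knockout and between 351 and 687 CPM (median 516) in control mice and fell 2.59-fold (log2 fold change -1.37 ± 0.16, edgeR adjusted p = 1.15e-06). Sult1e1, at the end of the stretch, had at most 5 counts in a library.

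**Figure D3:**
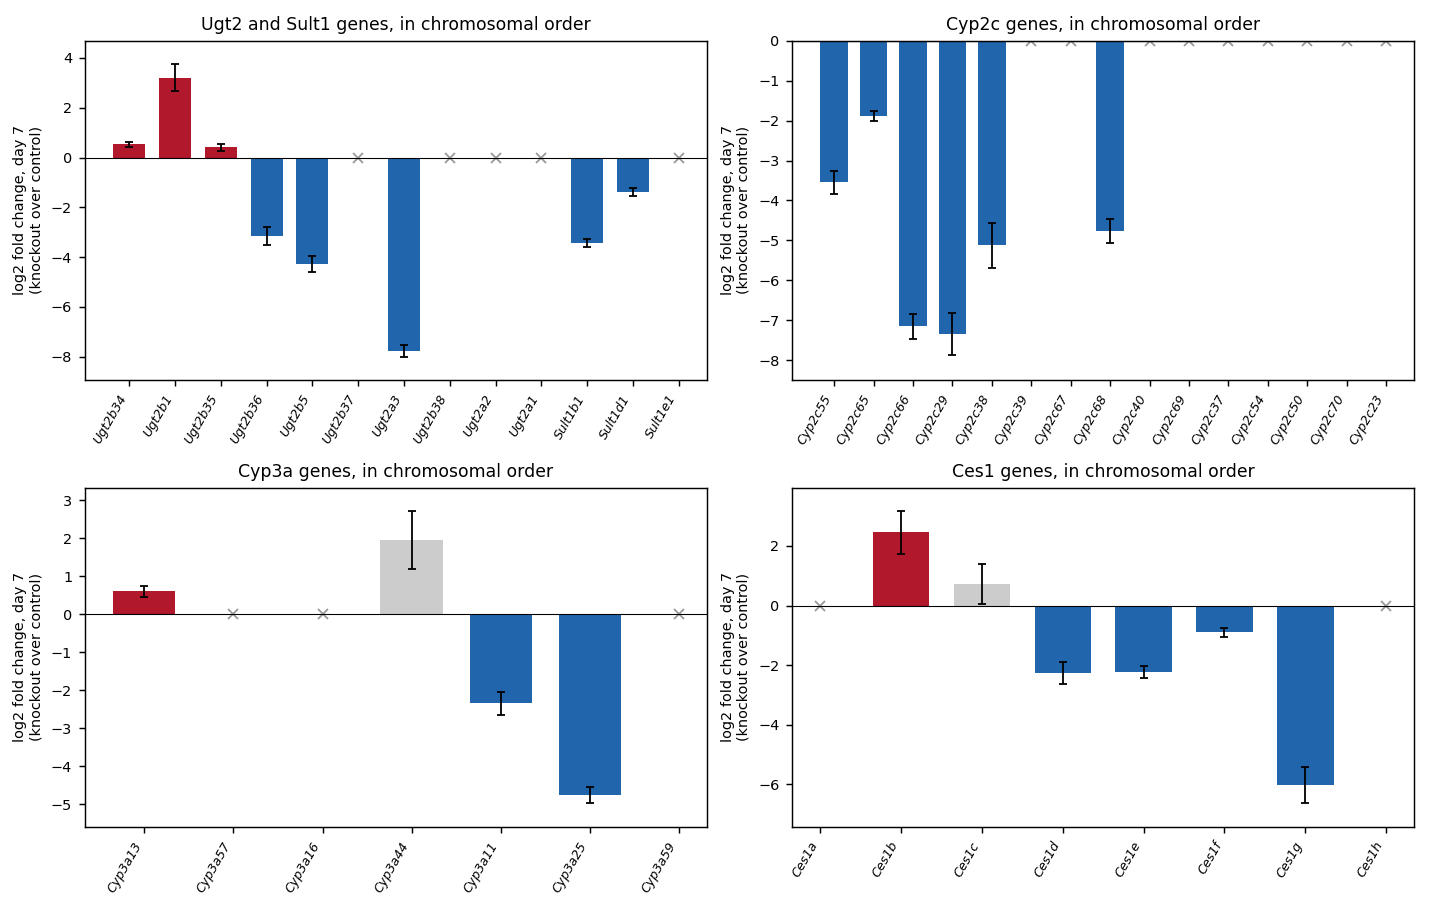
Log2 fold change of knockout over control mice at day 7 (vertical axis, bars with SE) for the genes of 4 groups in their order along the chromosome; red, rose; blue, fell; grey, not past the test; crosses, not tested. In the Ugt2 and Sult1 stretch the first 3 genes rose and all 5 others that were tested fell, and the 6 tested Cyp2c genes all fell.

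Of the other sulfotransferases, Sult6b2 on chromosome 6 was between 34.5 and 139 CPM (median 113) in knockout and between 185 and 1161 CPM (median 633) in control mice. Its mean in control mice of day 7 was the highest of the Sult genes, although Sult1b1 had a higher median. The control mice spread widely, yet the groups did not overlap (log2 fold change -2.77 ± 0.38, edgeR adjusted p = 1.07e-05). Sult2b1, which sulfates cholesterol, was between 15.3 and 33.6 CPM (median 20.99) against between 41.8 and 71.1 CPM (median 50.2) (log2 fold change -1.24 ± 0.19, edgeR adjusted p = 3.83e-05). Sult1a1, Sult1c2, Sult4a1 and Sult5a1 did not pass the test, with log2 fold changes of 0.34 ± 0.20, 0.17 ± 0.57, -0.55 ± 0.43 and 0.85 ± 0.73. Sult1c2 depended on control replicate 2 of day 7, a library with stomach markers above 5000 CPM, where it was at its highest (19.98 CPM). Without the library it was called higher in knockout mice, at a log2 fold change of 1.37 (edgeR adjusted p = 0.00456).

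At 3 days, few members differed between the genotypes. Of 62 tested, 3 fell, 0 rose and 59 did not pass the edgeR test, where 0.323% of 20760 genes fell and 1.11% rose. At an unadjusted p under 0.05 there were 11 members, and the DESeq2 Wald test called 4 lower and 1 higher. Among all 20760 genes, the DESeq2 Wald test called 238 lower and 531 higher. No member was separated between the groups, against 0.491% of all genes that were lower in every knockout library and 0.356% that were higher. The median log2 fold change of members was -0.04 (-0.11 with the Ugt1a genes summed), and that of all genes -0.03. Cyp2c66 was between 2.52 and 25.9 CPM (median 11.1) in knockout and between 6.72 and 109 CPM (median 70.7) in control mice (log2 fold change -2.16 ± 0.48, edgeR adjusted p = 0.0339). Ces1e was between 10.7 and 28.3 CPM (median 18.9) against between 22.8 and 55.0 CPM (median 43.8) (log2 fold change -1.06 ± 0.25, edgeR adjusted p = 0.0384). In both genes the lowest control mice lay within the knockout range. Cyp2c38 had 6 pooled counts in 7 knockout and 68 in 7 control libraries, so that its control level was 11.8 times (95% interval 5.15 to 33.3 for counting error) that of knockout mice (edgeR adjusted p = 0.0347). These 3 genes were also called lower at 7 days.

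The calls at 3 days depended on single libraries. No member passed the edgeR test when any one of knockout replicates 3, 4, 5 and 7 of day 3 and control replicates 1, 4 and 6 of day 3 was left out. Leaving out any one of knockout replicate 6 of day 3 and control replicates 3 and 7 of day 3 left 1 call, control replicate 2 of day 3 left 3, and any one of knockout replicates 1 and 2 of day 3 and control replicate 5 of day 3 left 4. With single mice left out, the log2 fold change ranged from -2.45 to -1.97 for Cyp2c66, from -1.25 to -0.96 for Ces1e and from -3.86 to -2.82 for Cyp2c38. No enterocyte marker changed at 3 days (0 of 11, median log2 fold change 0.23), but their sum spread between 787 and 14499 CPM among knockout and between 1034 and 13614 CPM among control mice, with none of the markers at 0. In knockout replicate 1, with stomach markers at 30810 CPM, members summed to 816 CPM and enterocyte markers to 787 CPM. In control replicate 5, with stomach markers at 67323 CPM, they summed to 1082 and 1034 CPM. The other 12 libraries of day 3 held between 1478 and 4449 CPM of members. The 3 day 3 libraries above 5000 CPM of stomach markers were then left out, an alternative chosen after the data had been seen. Of 64 members tested, 6 fell and 1 rose, where 121 of all 21022 genes fell and 365 rose. When those above 5000 CPM of pancreatic markers were left out as well, 52 of all 20623 genes fell and 146 rose. Among 62 members tested in that setting, 7 fell and 0 rose. The 7 were Ces1e, Cyp2b10, Cyp2c29, Cyp2c38, Cyp2c55, Cyp2c66 and Ugt2a3, of which Cyp2b10 then had a log2 fold change of -2.22 (edgeR adjusted p = 0.000232) and Ugt2a3 one of -1.95 (edgeR adjusted p = 0.00244). With all libraries, Cyp2b10 was between 1.68 and 34.9 CPM (median 21.4) in knockout and between 2.96 and 155 CPM (median 70.5) in control mice (log2 fold change -1.61 ± 0.58, edgeR adjusted p = 0.212). The approximate 95% interval of its log2 fold change ran from -2.75 to -0.46.

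Whether the genotype acted differently at the 2 days was tested as an interaction of genotype and day over the 26 libraries together. Of 55 members tested, the difference was negative in 23, meaning a lower knockout level relative to control at 7 than at 3 days, and positive in 2. Among all 19604 genes, it was negative in 9.74% and positive in 8.64%. The median difference was -1.09 over members (-1.30 with the Ugt1a genes summed) and 0.03 over all genes. Ugt2a3 had the largest, as its log2 fold change was -1.40 ± 0.40 at 3 days and -7.77 ± 0.23 at 7 days (difference -6.35 ± 0.62, edgeR adjusted p = 2.39e-08). For Ugt2b5 and Ugt2b36 the 3 day values were -0.08 ± 0.35 and 0.11 ± 0.26, and the differences -4.16 ± 0.54 and -3.26 ± 0.47. Sult1b1 moved from -0.28 ± 0.34 to -3.44 ± 0.17, Cyp2c68 from -0.04 ± 0.46 to -4.76 ± 0.30, and Ces2e from 0.22 ± 0.43 to -2.96 ± 0.12. The genes with a positive difference were Cyp1b1 (1.78 ± 0.36) and Cyp2e1 (2.87 ± 0.96), the latter with at most 15 counts in a library and named after its values were seen. For Cyp3a11, Cyp3a13, Ugt2b34 and the Ugt1a locus the difference did not pass the test (-1.72 ± 0.84, -0.67 ± 0.68, 0.38 ± 0.35 and -0.88 ± 0.42). The calls of Sult1d1 and Cyp2j6 were lost when single libraries were left out. For Sult1d1 these were any one of knockout replicates 2, 4 and 6 of day 3, knockout replicates 2, 4, 5 and 6 of day 7, control replicates 2, 5 and 6 of day 3 and control replicates 1, 4, 5 and 6 of day 7 (adjusted p up to 0.0788, edgeR). For Cyp2j6 they were any one of knockout replicates 2, 3, 4 and 6 of day 3, knockout replicates 1, 2 and 4 of day 7, control replicates 2, 5 and 7 of day 3 and control replicates 5 and 6 of day 7 (adjusted p up to 0.0747, edgeR), and for Cyp2e1 any one of knockout replicates 2, 3, 4, 5 and 7 of day 3, knockout replicates 4 and 5 of day 7, control replicates 4 and 6 of day 3 and control replicates 1, 2 and 3 of day 7 (adjusted p up to 0.114, edgeR).

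**Figure D4:**
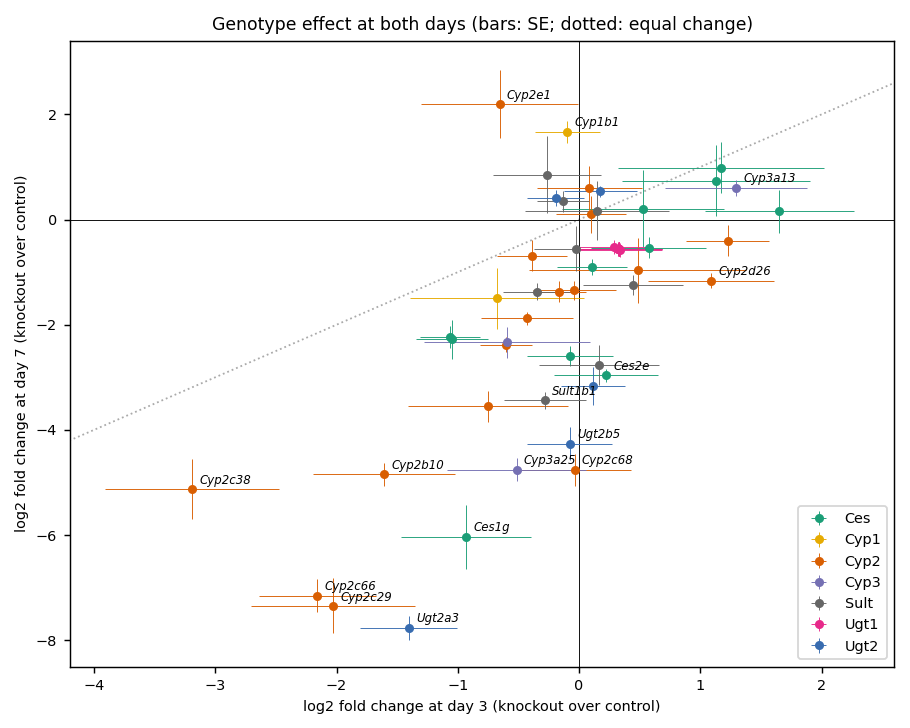
Log2 fold change of knockout over control mice at day 3 (horizontal axis) and day 7 (vertical axis) for the members tested at both days, coloured by class, with SE bars and a dotted line of equal change. Of the members whose change differed between the days, 23 lie below the line, and Cyp1b1 and Cyp2e1 lie above it.

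The level of the control mice was itself not the same at the 2 days. Of 63 members tested between the control mice of 7 and 3 days, 41 were higher and 3 lower at 7 days, against 19.7% higher and 16.3% lower among 20646 genes. With the Ugt1a genes summed, 33 of 55 were higher and 3 lower. The median log2 difference was 1.34 over members, and 1.20 with the Ugt1a genes summed. Cyp3a13 was between 30.4 and 470.5 CPM (median 245) in control mice at 3 days and between 718 and 1099 CPM (median 921) at 7 days (log2 fold change 2.46 ± 0.41, edgeR adjusted p = 0.000235). Cyp2b10 was between 2.96 and 155 CPM (median 70.5) and between 218 and 411 CPM (median 268) (log2 fold change 2.37 ± 0.50, edgeR adjusted p = 0.00151), and Sult1b1 between 86.0 and 376 CPM (median 258) and between 570.1 and 687 CPM (median 664) (log2 fold change 1.82 ± 0.26, edgeR adjusted p = 7.98e-05). The lower 3 were Cyp1b1 (-1.44 ± 0.24), Cyp2t4 (-0.79 ± 0.29) and Sult1a1 (-0.64 ± 0.21), the latter pair named after their values were seen. The calls of that pair were lost when single control libraries were left out, any one of control replicates 1, 2, 3, 4, 5 and 7 of day 3 and control replicates 1, 2, 3, 4 and 6 of day 7 for Cyp2t4 (adjusted p up to 0.0947, edgeR) and of control replicates 2 and 7 of day 3 and control replicates 1, 3 and 5 of day 7 for Sult1a1 (adjusted p up to 0.0667, edgeR). All 11 enterocyte markers were higher at 7 than at 3 days in control mice (median log2 difference 2.22), and all 7 smooth muscle markers were lower (-0.98). The days were separate groups of mice, so a difference in dissection or batch and the day cannot be told apart. Without the control libraries above 5000 CPM of stomach or pancreatic markers, 33 members were higher and 1 lower. The comparison of the genotypes at 7 days uses the same control mice of that day. Of the 37 members lower in knockout mice at 7 days, 34 were also higher in control mice at 7 than at 3 days. The share among all genes lower at 7 days was not counted, so the 34 cannot be read as a trait of the members. The 34 include the 9 Ugt1a genes. The mean Sult sum of control mice was 793 CPM at 3 and 1914 CPM at 7 days. That of knockout mice was 659 and 391 CPM. For Cyp2 these means were 426 and 1142 CPM in control and 307 and 225 CPM in knockout mice. For Ces they were 434 and 925 CPM and 426 and 263 CPM. In the other classes the mean of knockout mice was not lower at 7 than at 3 days. For the Ugt1a locus the means were 444 and 924 CPM in control and 507 and 619 CPM in knockout mice. For Cyp3 they were 341 and 1353 CPM and 549 and 1430 CPM, and for Ugt2 411 and 720 CPM and 374 and 786 CPM. For Cyp1 they were 11.1 and 5.22 CPM and 9.46 and 9.87 CPM.

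Regulators of these enzymes were read from a list of 24 transcription factors. At 7 days 3 rose and 12 fell of 24 tested (against 19.7% and 18.8% of all genes), with a median log2 fold change of -0.55, and at 3 days 0 changed by the edgeR test and 2 by the DESeq2 Wald test. Vdr, the vitamin D receptor, fell most (57.1 ± 20.9 against 506 ± 93.1 CPM, log2 fold change -3.11 ± 0.25, edgeR adjusted p = 1.15e-08), followed by Ppara, a receptor for fatty acids (16.2 ± 3.90 against 88.3 ± 17.7 CPM, log2 fold change -2.42 ± 0.18, edgeR adjusted p = 3.41e-09), and Hnf4g (39.7 ± 7.72 against 123 ± 22.9 CPM, log2 fold change -1.61 ± 0.16, edgeR adjusted p = 1.99e-07). Among the rises were Nr1h4, the bile acid receptor FXR (35.4 ± 1.97 against 15.5 ± 2.02 CPM, log2 fold change 1.22 ± 0.10, edgeR adjusted p = 1.45e-08), and Pparg, a receptor for fatty acids that is known from fat cells (28.2 ± 5.404 against 13.4 ± 5.06 CPM, log2 fold change 1.11 ± 0.20, edgeR adjusted p = 0.000206). Of the receptors best known for inducing the members, named here after their values were seen, CAR (Nr1i3) fell (19.7 ± 1.22 against 44.0 ± 5.05 CPM, log2 fold change -1.13 ± 0.10, edgeR adjusted p = 5.13e-08). PXR (Nr1i2) did not pass the test (92.3 ± 9.78 against 108 ± 25.0 CPM, -0.21 ± 0.15), nor did the aryl hydrocarbon receptor Ahr (10.6 ± 2.05 against 13.5 ± 3.14 CPM, -0.32 ± 0.16) or Hnf4a (219.8 ± 29.2 against 262 ± 19.1 CPM, -0.23 ± 0.11). Nfe2l2, which drives antioxidant genes, was lower at 7 days (299 ± 11.3 against 516 ± 67.3 CPM, log2 fold change -0.76 ± 0.10, edgeR adjusted p = 5.4e-06).

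Of genes that supply electrons and cofactors, 4 rose and 8 fell of 16 tested at 7 days, against 19.7% and 18.8% of all genes. Por, the P450 reductase, was slightly higher (636 ± 46.2 against 494 ± 73.4 CPM, log2 fold change 0.39 ± 0.12, edgeR adjusted p = 0.0136). Genes that make the glucuronic acid donor rose, namely Ugdh, which oxidizes UDP-glucose (464 ± 38.8 against 191 ± 41.5 CPM, log2 fold change 1.31 ± 0.12, edgeR adjusted p = 1.14e-07), and Ugp2, which makes UDP-glucose (108 ± 16.2 against 64.8 ± 6.41 CPM, log2 fold change 0.77 ± 0.11, edgeR adjusted p = 1.21e-05). Gusb, the lysosomal glucuronidase, rose as well (34.7 ± 4.69 against 25.2 ± 5.62 CPM, 0.50 ± 0.13). Ugdh was the only gene of this list called at 3 days (227 ± 99.2 against 99.6 ± 34.8 CPM, log2 fold change 1.33 ± 0.31, edgeR adjusted p = 0.0432). Genes that make the sulfate donor PAPS fell, with Papss2 (177 ± 49.9 against 1079.6 ± 478 CPM, log2 fold change -2.56 ± 0.30, edgeR adjusted p = 1.37e-06), Papss1 (11.2 ± 1.32 against 28.5 ± 8.69 CPM, -1.32 ± 0.18) and the sulfate transporter Slc26a2 (106 ± 12.1 against 222 ± 56.3 CPM, -1.04 ± 0.16).

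Of the transporters, 7 rose and 8 fell of 17 tested at 7 days, against 19.7% and 18.8% of all genes, and 1 fell at 3 days (Slco2b1, 26.8 ± 8.03 against 44.6 ± 5.74 CPM, -0.64 ± 0.15). Of the conjugate exporters of the MRP family, Abcc1, Abcc2, Abcc3 and Abcc4 rose and Abcc6 fell. Abcc2 was 1327 to 1759.8 CPM in knockout and 352 to 525 CPM in control mice (1521 ± 171 against 466 ± 69.3 CPM, log2 fold change 1.73 ± 0.12, edgeR adjusted p = 1.8e-09). Values of Abcc4 (12.2 ± 2.22 against 3.997 ± 1.05 CPM, 1.65 ± 0.17) and Abcc3 (36.9 ± 6.37 against 18.0 ± 5.19 CPM, 1.07 ± 0.16) were smaller, and those of Abcc1 (19.7 ± 2.35 against 10.2 ± 4.30 CPM, 1.0 ± 0.18) and Abcc6 (0.6247 ± 0.627 against 2.70 ± 1.22 CPM, -2.09 ± 0.52) were looked up after the others had been seen. Falls were found in the cation carrier Slc47a1 (12.6 ± 5.02 against 73.4 ± 20.5 CPM, log2 fold change -2.52 ± 0.25, edgeR adjusted p = 2.07e-07) and in the anion carrier Slco2b1 (8.50 ± 2.92 against 34.8 ± 7.61 CPM, -2.01 ± 0.18).

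**Figure D5:**
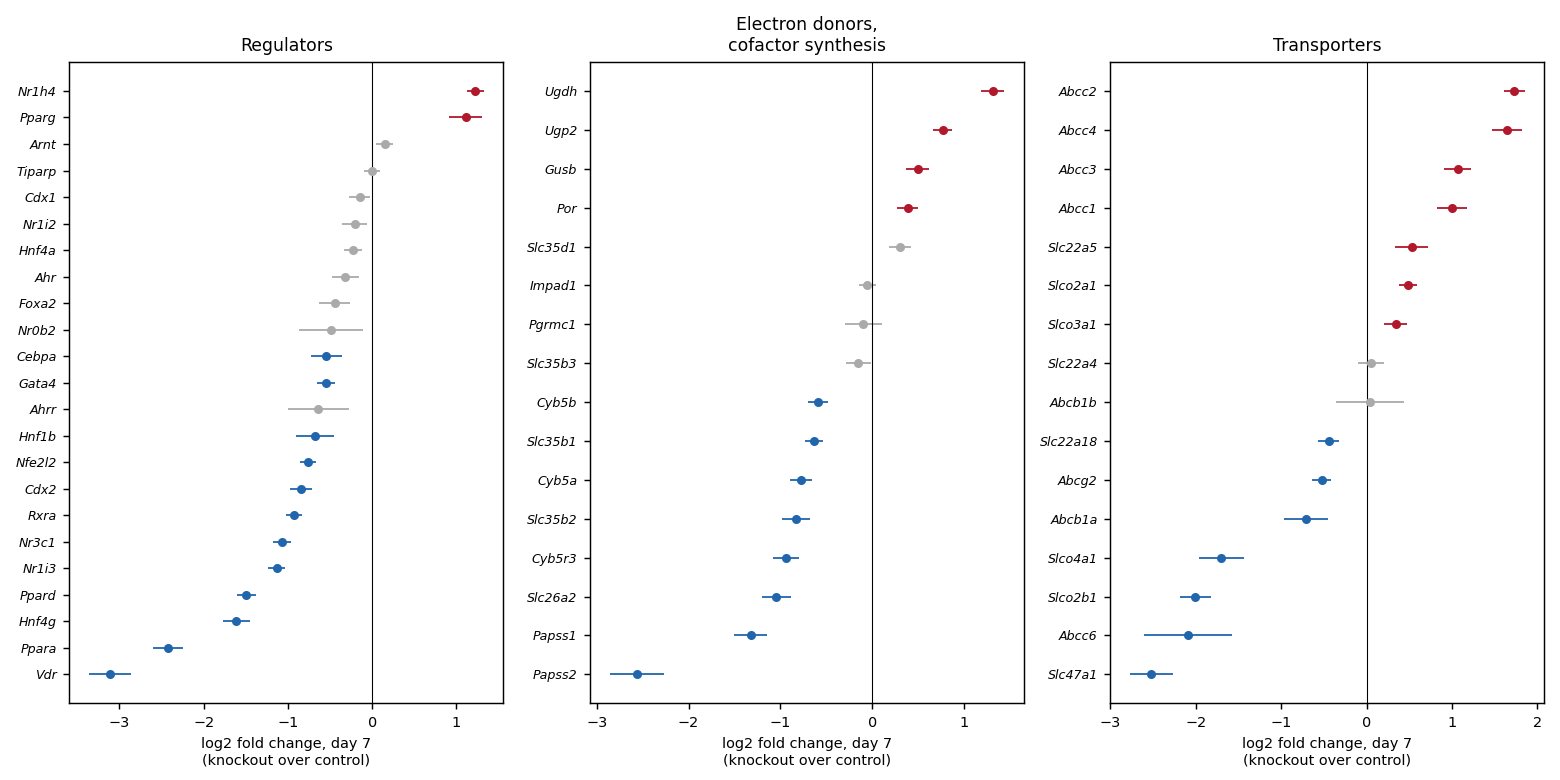
Log2 fold change of knockout over control mice at day 7 (horizontal axis, points with SE) for tested genes of 3 lists of the pathway; red, rose; blue, fell; grey, not past the test. Vdr and Ppara lie at the low end of the regulators, Ugdh and Papss2 at opposite ends of the cofactor genes, and Abcc2 at the high end of the transporters.

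Among other phase I enzymes, 9 rose and 15 fell of 31 tested at 7 days, against 19.7% and 18.8% of all genes. The rises were led by reductases. Akr1b8, an aldo-keto reductase, rose 25.4-fold (116 ± 14.9 against 4.87 ± 5.64 CPM, log2 fold change 4.67 ± 0.37, edgeR adjusted p = 1.05e-08) and was also called at 3 days (18.0 ± 9.37 against 4.93 ± 3.37 CPM, 2.02 ± 0.41). Cbr3, a carbonyl reductase (194 ± 25.9 against 14.6 ± 18.0 CPM, log2 fold change 3.82 ± 0.46, edgeR adjusted p = 1.99e-06), and Nqo1, a quinone reductase (54.4 ± 9.88 against 20.1 ± 11.5 CPM, log2 fold change 1.49 ± 0.23, edgeR adjusted p = 4.77e-05), followed. The largest falls were in Adh4, an alcohol dehydrogenase that had 0 to 0.54 CPM in knockout and 5.99 to 36.8 CPM in control mice, in Maob (11.3 ± 2.36 against 158 ± 45.8 CPM, log2 fold change -3.80 ± 0.21, edgeR adjusted p = 1.11e-10) and in Aldh1a1 (50.2 ± 10.6 against 442 ± 151 CPM, log2 fold change -3.11 ± 0.21, edgeR adjusted p = 1.63e-09). Of the CYP genes of other families, 2 rose and 6 fell of 17 tested at 7 days, against 19.7% and 18.8% of all genes. Among them were Cyp4a10 (0.232 ± 0.297 against 8.91 ± 4.50 CPM, -5.11 ± 0.53), Cyp4v3 (34.0 ± 6.01 against 353 ± 85.2 CPM, -3.35 ± 0.18) and Cyp4f14 (105 ± 21.2 against 502 ± 137 CPM, -2.24 ± 0.20), which hydroxylate fatty acids and fell. Cyp39a1 (14.3 ± 2.47 against 6.57 ± 1.70 CPM, 1.14 ± 0.17) and Cyp20a1 (22.3 ± 4.92 against 11.9 ± 3.28 CPM, 0.94 ± 0.16) rose.

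The other 60 members were not tested at 7 days. Of these, 21 had no count in any of the 26 libraries, including Cyp2c39, Cyp2c40, Cyp3a16, Ces4a and the liver sulfotransferases Sult2a1 to Sult2a7, and 24 had at most 3 counts in a library. A further 15 exceeded 3 counts in some library, and the following 3 of them were named after their values were seen. Cyp2c23, an epoxygenase of arachidonic acid, had 1 pooled count in knockout and 158 in control libraries of day 7, with control mice between 1.15 and 7.70 CPM (median 5.35). Ugt2b38 had 1 and 88 pooled counts, of which 56 came from control replicate 2, the library with high stomach markers. The ratio of control to knockout level was 164 (95% interval 29.1 to 6537) for Cyp2c23 and 91.6 (16.02 to 3659) for Ugt2b38. Ces3a had 0 counts in knockout and 26 in control libraries of day 7, for which the 95% lower limit of the ratio of control to knockout level was 6.83 by counting error alone.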

How the data were processed

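3′ mRNA libraries of proximal SI from 26 mice were analysed. The authors trimmed reads with Cutadapt 2.10 (minimum length 35), aligned them with Subread to GRCm38 (Ensembl annotation) and counted them with featureCounts 2.0.1, dividing reads between overlapping genes and requiring a mapping quality of 30 and an overlap of 20 bases. The deposited table therefore holds expected counts, 95.0% of them whole, which were rounded here. The deposited CPM table equals the counts over their totals. As in the study, a gene was dropped if it had no count in most of the knockout or most of the control samples. Genotypes were compared at each day, control mice between days, and the interaction over all libraries, with edgeR 4.0.16 (quasi-likelihood, TMM, Benjamini-Hochberg adjustment over all genes tested, R 4.3.3); the study used DESeq2, run here as an alternative (version 1.42.0). On data simulated for 200 changed genes, the fits were tested for recovery. Low counts were compared as pooled counts with exact 95% intervals. Promoters are from RefSeq (GRCm38.p6). Members and lists were chosen with earlier results of these data known. Named members were, in each class, up to 4 that rose and 4 that fell most among those called at 7 days with a mean of at least 20 counts, every member called at 3 days, the 3 most abundant, and the 6 with the smallest adjusted p in the interaction. Pathway genes were named as up to 3 per direction and list. Genes given outside these rules, Por, Nfe2l2 and Cyp2c65 among them, were chosen after their values were seen. Protein sequences were not used here, and some items, the targeted gene among them, are not reported here.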

Additional observations from a re-analysis of the deposited data

Results flagged for a closer look

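Single libraries lay far from the rest of their group by Dixon's test in 10 of 124 groups of named members, where chance gives about 6.2 at 1 in 20. Cyp1a1 was 1.29 CPM in knockout replicate 2 of day 3, the highest of its group, where the next library had 0.504 CPM. Cyp1a2 was 0.821 CPM in knockout replicate 7 of day 3, the highest of its group, where the next library had 0.185 CPM. Cyp1a2 was 1.25 CPM in control replicate 6 of day 3, the highest of its group, where the next library had 0.372 CPM. Cyp1a2 was 0.169 CPM in control replicate 1 of day 7, the highest of its group, where the next library had 0 CPM. Cyp1b1 was 18.4 CPM in control replicate 2 of day 3, the highest of its group, where the next library had 10.1 CPM. Cyp1b1 was 4.23 CPM in control replicate 4 of day 7, the highest of its group, where the next library had 2.88 CPM. Cyp2c38 was 0.543 CPM in knockout replicate 4 of day 7, the highest of its group, where the next library had 0.19 CPM. Cyp2d26 was 50.4 CPM in knockout replicate 2 of day 7, the lowest of its group, where the next library had 74.7 CPM. Cyp3a25 was 0.841 CPM in knockout replicate 1 of day 3, the lowest of its group, where the next library had 25.2 CPM. Ugt2a3 was 1.48 CPM in knockout replicate 5 of day 7, the highest of its group, where the next library had 0.569 CPM. Knockout replicate 1 of day 3, with the lowest Cyp3a25 level, is a library with stomach markers above 5000 CPM.

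For 19 of the 31 named members the genotype effect differed between the days by the interaction test. These members were named in part for a small p in this test or a large change at 7 days, and over the 55 members tested it was called in 25, against 8.64% of all genes higher and 9.74% lower. The log2 fold change at 7 days minus that at 3 days was -1.15 for Ces1e, -5.09 for Ces1g, -3.17 for Ces2e, -2.50 for Ces2g, -3.22 for Cyp2b10, -5.30 for Cyp2c29, -4.98 for Cyp2c66, -4.70 for Cyp2c68, -2.23 for Cyp2d26. It was -1.29 for Cyp2j6, -4.22 for Cyp3a25, -3.14 for Sult1b1, -1.0 for Sult1d1, -1.66 for Sult2b1, -2.90 for Sult6b2, -6.35 for Ugt2a3, -3.26 for Ugt2b36 and -4.16 for Ugt2b5. It was positive for Cyp1b1 (1.78).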

How the results depend on the processing

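The 44 members called at 7 days numbered 39 to 44 when single mice were left out, 30 in a fit of all 26 libraries and 30 at 2-fold or more. With single mice left out, the 25 of the interaction numbered 22 to 36 and the 44 between control days 39 to 43. At 3 days the 3 members called became 5 with the DESeq2 Wald test, 6 in a fit of all 26 libraries, 0 with the replicate block, 7 without libraries high in stomach markers, 7 without those high in stomach or pancreatic markers, and 0 to 4 when single mice were left out. Over all genes at 3 days, 297 calls became 769, 810, 99, 486 and 198 in these 5 settings and 171 to 779 with single mice left out. Calls of at least 2-fold numbered 129 at 3 days and 3245 at 7 days, where all calls numbered 7790 and 7159 to 7867 with single mice left out. DESeq2 called 2 regulators (0 with edgeR) and 2 other phase I enzymes (1 with edgeR) at 3 days. The ratio of knockout to control sums at 7 days moved from 0.285 to 0.44 without Ces2e, from 1.89 to 0.343 without Cyp1b1, from 0.197 to 0.254 without Cyp2b10, from 1.06 to 0.147 without Cyp3a13 and from 1.09 to 0.26 without Ugt2b34. The causes were not tested.

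The labels do not say whether replicate numbers pair the mice. Deviations of equally numbered mice correlated between -0.46 and 0.573. Mice of different numbers were not compared, so these values cannot decide whether the numbers pair them. With the replicate block, 43 members were called at 7 days, 21 in the interaction and 39 between control days. Where a named member was called, its log2 fold change kept its direction in every alternative run. Values that were not called were not compared in this way. Depth limits what can be said of members with few counts.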
